A study of Mus musculus with 4 samples.

Results

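Of the 57132 genes listed in the deposited matrices, 9 genes of heme breakdown and iron handling were followed across the cell classes of injured mouse kidneys: Hmox1, Blvra, Blvrb, Fth1, Ftl1, Slc40a1, Tfrc, Slc11a1 and Slc11a2. They were taken by symbol, and all 9 were found in all 4 libraries. The study profiled kidneys of wild-type mice by droplet single-cell RNA sequencing after contrast-induced acute kidney injury (CIAKI), an injury that follows the iodinated agents used in X-ray imaging. The labels describe 4 mice, CIAKI1 to CIAKI4, as 1 group of biological replicates and place all of them in batch 1. No uninjured kidney was analysed here, so each comparison sets one cell class against another inside injured kidneys. The sources used here give no strain, age or sex of the mice, and neither the agent, the dose nor the interval between injury and collection.

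Heme oxygenase 1, the product of Hmox1, opens the heme ring and releases iron, carbon monoxide and biliverdin, which biliverdin reductase A (Blvra) reduces. Blvrb encodes a flavin reductase also known as biliverdin reductase B. Freed iron is stored in ferritin, a shell of heavy (Fth1) and light (Ftl1) chains, or leaves the cell through ferroportin (Slc40a1). Iron enters cells bound to transferrin through its receptor (Tfrc) and crosses membranes through the transporters DMT1 (Slc11a2) and, in the phagosomes of innate immune cells, NRAMP1 (Slc11a1). In the kidney the proximal tubule takes up filtered heme and iron proteins, and macrophages recycle iron from dying cells.

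Several of these transcripts carry an iron-responsive element, a stem-loop bound by the iron regulatory proteins, which hold back translation from a 5′ untranslated region and stabilise the transcript from a 3′ untranslated region. The elements are shown because transcript counts alone miss the first kind of control. A pattern of C, any 5 bases, CAGTG and a base other than G, with the 5 bases pairing with the 5 after the 6-base loop (G with T allowed), was searched on the transcript strand of the untranslated regions of GENCODE M21 mouse transcripts. It was found in 4 of the 9 genes and in 133 of 22527 genes (0.59%) with coding transcripts. Fth1, Ftl1 and Slc40a1 held 1 site each in the 5′ region, and Tfrc held 4 in the 3′ region. Capitals mark the first 5 bases of the loop.
Fth1, 5′ region: ctgcttcaaCAGTGcttgaacgg
Ftl1, 5′ region: ttgcttcaaCAGTGtttgaacgg
Slc40a1, 5′ region: cttcagctaCAGTGttagctaag
Tfrc, 3′ region, site a: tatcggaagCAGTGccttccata
Tfrc, 3′ region, site b: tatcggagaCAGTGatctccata
Tfrc, 3′ region, site c: tatcgggaaCAGTGtttcccata
Tfrc, 3′ region, site d: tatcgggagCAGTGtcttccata
A match of letters is not a measured binding site, and forms of the element with other letters or a bulged stem were not searched.

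The 4 libraries held 36831995 to 105436725 unique molecular identifiers (UMIs, counts of captured RNA molecules), and 7085 to 12903 cells per mouse were kept. Mouse 4 stood apart: its cells had a median of 2077 UMIs against 5549 to 5777 in the others, ribosomal protein genes took a median 13.7% of its UMIs against 1.48% to 2.35%, and it shared 0 or 1 cell barcodes with each other library where mice 1 to 3 shared 23 to 54 with one another. Clustering without the 9 genes gave 47 clusters, of which 34 were named from marker genes as 15 classes. Of the kept cells, 9.89% stayed unnamed. In all 4 mice 13 classes had 10 or more cells, and the orders of classes given below are among these 13. NK-like cells reached this number in 2 mice and dendritic-like cells in 1 mouse, and both are left out of the orders. The red cell globins Hba-a1 and Hbb-bs had medians of 0 and 0.86 CPM (counts per 1000000 UMIs of a class in a mouse) over the named classes and mice, with highest values of 22.3 and 88.6 CPM.

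Heme oxygenase transcripts were most abundant in 3 classes, the proximal tubule-like, macrophage-like and neutrophil-like cells. Hmox1 stood at 379, 408, 196 and 155 CPM in the proximal tubule-like cells of mice 1 to 4, a mean of 284 ± 128 (SD, n = 4). In macrophage- and monocyte-like cells it stood at 241, 257, 461 and 114 CPM, a mean of 268 ± 143. The tubule-like level was the higher of both in mice 1, 2 and 4, and the macrophage-like level was higher in mouse 3. Without mouse 1, or without mouse 2, macrophage-like cells had the highest mean. Neutrophil-like cells followed with 176, 174, 441 and 71.3 CPM (mean 216 ± 158). Collecting duct-like cells, next in order, averaged 74.6 ± 28.7 CPM and lay below the neutrophil-like level in 4 of 4 mice. From the collecting duct to the T lymphocytes, which had the lowest mean (14.9 ± 8.64 CPM), no neighbouring classes were ordered the same way in all 4 mice.

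The reductase genes Blvra and Blvrb were spread differently from Hmox1. Blvra, which encodes biliverdin reductase A, was again highest in proximal tubule-like cells, at 80.4, 101, 56.0 and 115 CPM (mean 88.2 ± 25.7), and lay above the macrophage-like level of 47.4, 59.0, 51.7 and 44.2 CPM (mean 50.6 ± 6.43) in 4 of 4 mice. Neutrophil-like cells had the lowest mean Blvra of the 13 classes, at 3.71, 2.18, 11.3 and 10.6 CPM. Blvrb, which encodes the flavin reductase known as biliverdin reductase B, had near-equal means in proximal tubule-like (111 ± 120), collecting duct-like (107 ± 83.2) and macrophage-like cells (107 ± 59.9 CPM), which did not differ beyond their spread. In proximal tubule-like cells mouse 4 held 288 CPM against 44.3, 78.9 and 31.5 in mice 1 to 3, and in collecting duct-like cells the 4 mice held 55.9, 166, 17.3 and 188 CPM. Without mouse 4 the collecting duct-like cells had the highest mean. Blvrb was highest in mouse 4 in 12 of the 13 classes.

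Ferritin heavy chain transcripts followed the same 3 leading classes. Fth1 stood at 7705, 9723, 19022 and 51794 CPM in proximal tubule-like cells (mean 22061 ± 20426), at 6287, 7382, 17746 and 28378 CPM in macrophage-like cells (mean 14948 ± 10335) and at 7290, 6707, 19965 and 16782 CPM in neutrophil-like cells (mean 12686 ± 6699). The tubule-like level was above the macrophage-like level in 4 of 4 mice, whereas macrophage- and neutrophil-like cells changed places between mice. Mice 3 and 4 lay above mice 1 and 2 in each of these 3 classes. Fth1 was highest in mouse 4 in 10 of 13 classes. Thick ascending limb-like cells came next (mean 9569 ± 6458), and endothelial-like (2014 ± 1426) and T lymphocyte-like cells (1994 ± 1109) were last.

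The light chain had a narrower spread between mice. Ftl1 stood at 3440, 3423, 2099 and 8411 CPM in proximal tubule-like cells (mean 4343 ± 2784), at 2575, 2341, 3646 and 2972 CPM in macrophage-like cells (mean 2883 ± 571) and at 2478, 2082, 3651 and 2742 CPM in neutrophil-like cells (mean 2738 ± 666). In mouse 3 the tubule-like level was below both immune classes, and in mice 1, 2 and 4 it was above them. T lymphocyte-like cells were lowest at 454 ± 91.9 CPM, below the endothelial-like mean of 761 ± 327 in 4 of 4 mice. Ferritin genes have near-identical pseudogene copies, so reads that match both may be missing from the counts or assigned to either. Of the counted UMIs, copies took 0.384%, 0.522%, 0.501% and 6.90% for the light chain in mice 1 to 4. For the heavy chain they took at most 0.023%. These shares do not measure the reads that were lost.

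Ferroportin, the exporter, had a different leading class. Slc40a1 was highest in neutrophil-like cells, at 249, 237, 43.6 and 73.9 CPM (mean 151 ± 107), followed by thick ascending limb-like cells at 114, 126, 52.6 and 27.0 CPM (mean 79.9 ± 47.7) and proximal tubule-like cells at 106, 107, 43.1 and 28.8 CPM (mean 71.5 ± 41.4). The neutrophil-like level was the higher of the first pair in mice 1, 2 and 4. Macrophage-like cells held 56.5, 46.8, 1.82 and 3.15 CPM (mean 27.1 ± 28.7), eighth of the 13 classes. In mice 3 and 4 the macrophage-like level was thus at a few CPM, and in all 3 leading classes mice 1 and 2 lay above mice 3 and 4. Of the 13 classes, endothelial-like cells were lowest at 3.89 ± 3.04 CPM. Outside the 13, NK-like cells averaged 0.85 CPM in 2 mice, and dendritic-like cells of 1 mouse held 0 UMIs.

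The 2 import routes were led by epithelial classes. Tfrc, the transferrin receptor, stood at 82.8, 56.4, 21.3 and 22.5 CPM in proximal tubule-like cells (mean 45.8 ± 29.5), and distal convoluted tubule-like (36.3 ± 19.5) and B lymphocyte-like cells (33.1 ± 31.0) did not differ from them beyond the spread of mice. Macrophage-like cells were next to last at 5.52 ± 3.73 CPM, above endothelial-like cells (2.92 ± 2.93) in 4 of 4 mice. Slc11a2 was highest in intercalated-like cells, at 23.1, 26.7, 80.7 and 20.02 CPM (mean 37.6 ± 28.9), then in thin limb-like (30.2 ± 24.7), macrophage-like (25.7 ± 33.2) and proximal tubule-like cells (25.2 ± 8.88). Without mouse 3, which had the highest value in each of the first 3 of these, proximal tubule-like cells had the highest mean. Neutrophil-like cells had the lowest Slc11a2, with 0.64, 0.58, 8.38 and 0 CPM, below the endothelial-like level in 4 of 4 mice.

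Slc11a1 separated the phagocytes from every other class. It stood at 164, 125, 287 and 52.8 CPM in neutrophil-like cells (mean 157 ± 98.05) and at 216, 207, 99.7 and 70.3 CPM in macrophage-like cells (mean 148 ± 74.2), and which of the pair was higher changed between mice. Without mouse 3 the macrophage-like mean was the higher. The third class, B lymphocyte- and plasma-like cells, averaged 35.9 ± 42.3 CPM and was below the macrophage-like level in 4 of 4 mice. Its highest value, 98.4 CPM in mouse 1, rests on 14 cells. The other 10 classes had means between 2.68 and 21.03 CPM.

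**Figure D1:**
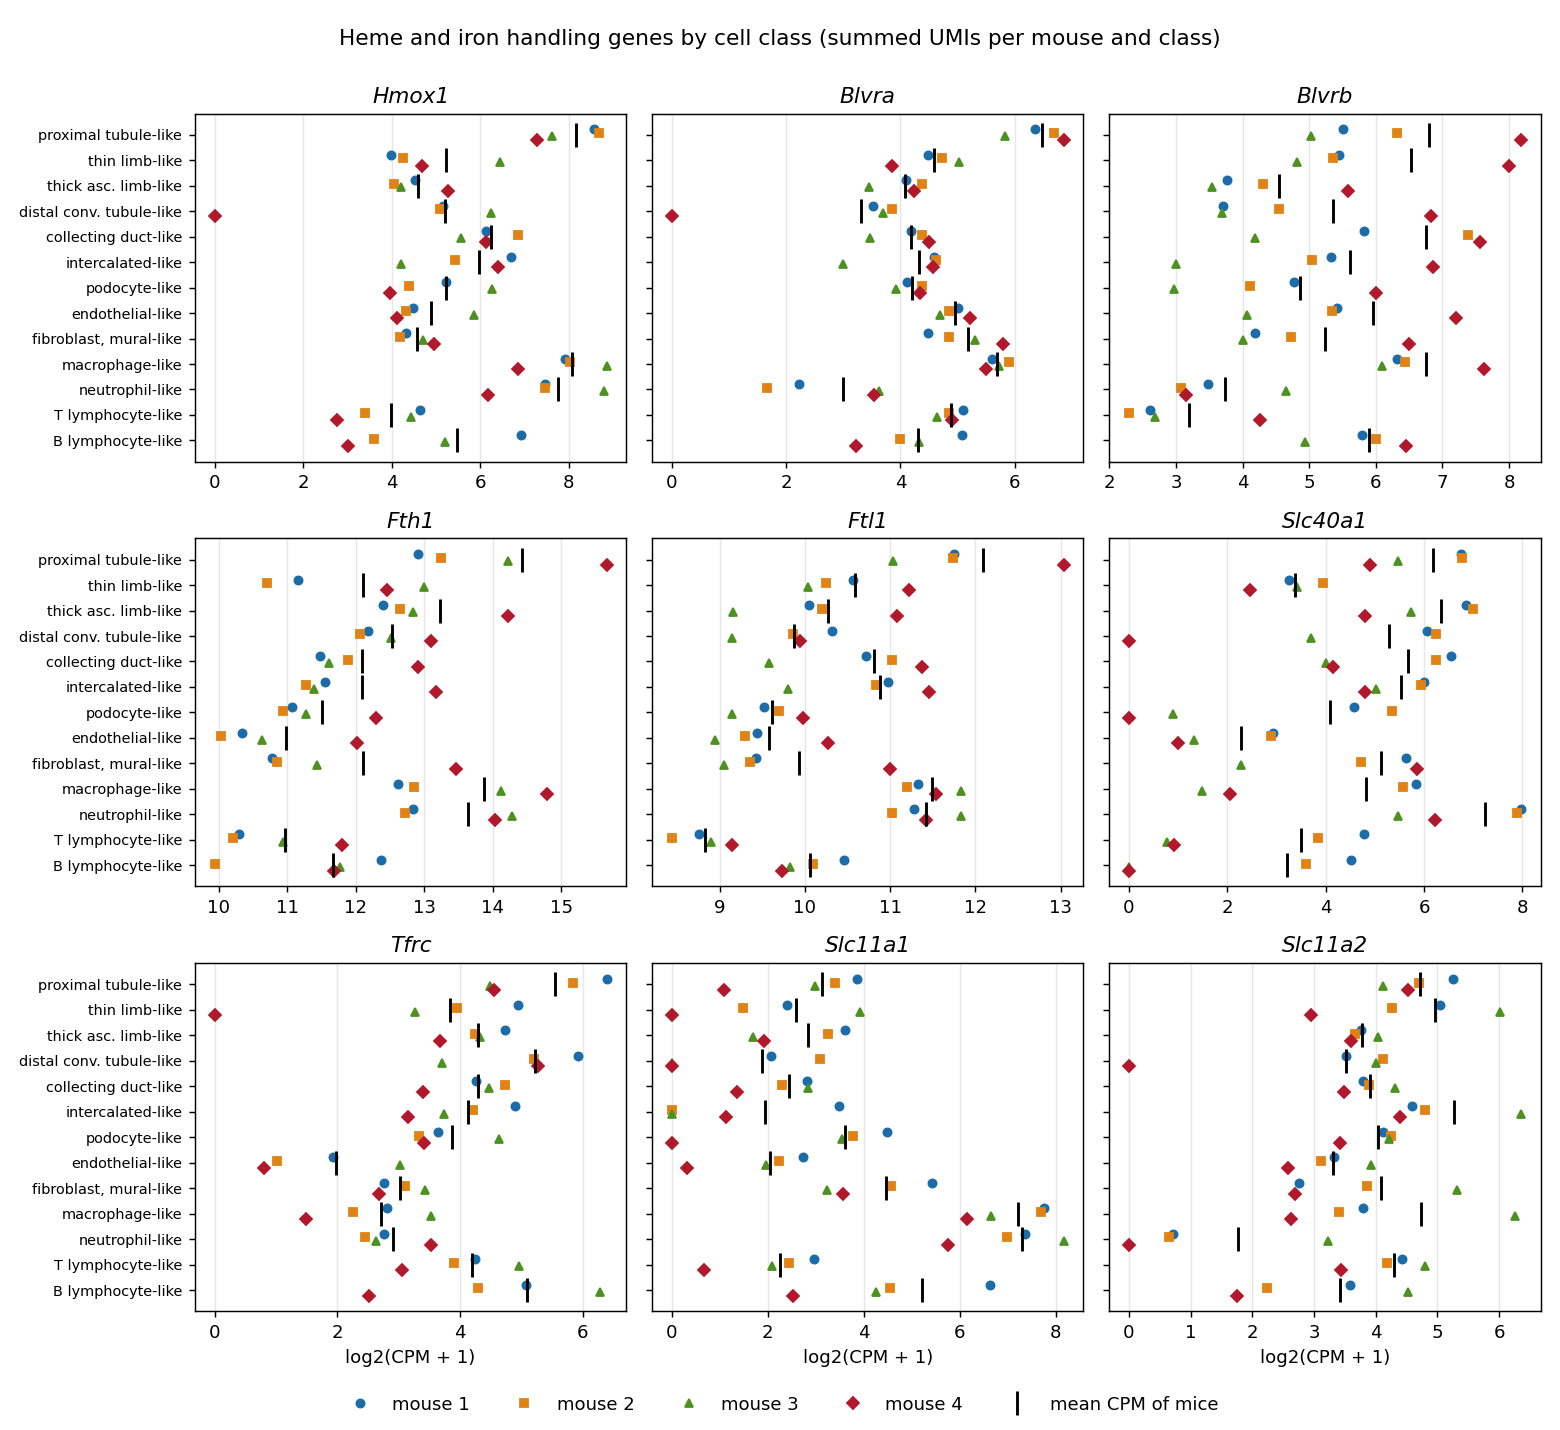
Level of each of the 9 genes, as log2(CPM + 1) on the horizontal axis, in 13 cell classes; coloured points are the 4 mice and the black bar is the log2 of their mean CPM plus 1. Proximal tubule-, macrophage- and neutrophil-like cells lead Hmox1, Fth1 and Ftl1, neutrophil-like cells lead Slc40a1 and are last for Blvra and Slc11a2, and the 2 phagocyte classes stand apart for Slc11a1.

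The share of cells with a UMI was compared at equal depth. Each cell with 1000 UMIs or more was thinned to 1000 UMIs, which left out 3410 cells. Hmox1 was then found in 21.7%, 24.2%, 13.3% and 10.7% of proximal tubule-like cells, in 13.3%, 15.9%, 18.2% and 9.11% of macrophage-like cells and in 15.1%, 15.2%, 21.8% and 9.04% of neutrophil-like cells. T lymphocyte-like cells, the class with the lowest mean level, had it in 1.59%, 0.30%, 1.28% and 0.67%. Background from free RNA was not measured. Before thinning the shares were 16.7% to 55.4% in macrophage-like and 1.09% to 8.24% in T lymphocyte-like cells, whose median depths were 2250 to 7732 and 1700 to 4858 UMIs. Slc40a1 was found after thinning in 20.9%, 20.6%, 4.08% and 5.85% of neutrophil-like cells against 2.80%, 3.23%, 0.11% and 0.25% of macrophage-like cells and 1.98%, 1.19%, 0.18% and 0.03% of T lymphocyte-like cells. In mouse 3 the macrophage-like share was below the T lymphocyte-like share although its level was higher (1.82 against 0.72 CPM), so no order is read from either in that mouse. Slc11a1 was found after thinning in 14.8%, 10.8%, 26.7% and 6.38% of neutrophil-like and 15.1%, 18.3%, 8.41% and 6.30% of macrophage-like cells, against 0 to 0.79% of T lymphocyte-like cells.

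A class contributes to a gene's total by its level and by its number of cells. Macrophage- and monocyte-like cells held the largest mean share of the Hmox1 UMIs of a mouse, 31.1% ± 20.4 (SD, n = 4), followed by neutrophil-like cells with 24.1% ± 19.9. For Slc11a1 the same classes held 42.1% ± 27.1 and 31.7% ± 18.8, and for Fth1 24.4% ± 16.0 and 23.5% ± 19.96. Neutrophil-like cells held 44.8%, 72.8%, 28.9% and 6.73% of the Slc40a1 UMIs of mice 1 to 4 (mean 38.3% ± 27.8), and in mouse 4 proximal tubule-like cells held more (24.3%). On average the unnamed cells held 14.4% to 21.4% of each gene's UMIs. Neutrophil-like cells numbered 2341, 3764, 870 and 200 in mice 1 to 4, so these shares moved with the number of cells captured.

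Within the proximal tubule-like class, ferritin and heme oxygenase levels differed between clusters in the same mouse. Cluster 12 was led by the glutathione transferases Gsta2 and Gsta1. Cluster 14 was led by Snhg11, with the transporters Abcc2 and Slc13a1 and the genes Gm31641 and Gm34470 among its 10 leading genes. Cluster 26, nearly all of it from mouse 3, was led by Kap and Krt20, with Cyp2e1, Acsm2 and Fgg among the leading genes. Fth1 was 16372, 20701 and 69935 CPM in cluster 12 of mice 1, 2 and 4, against 3733, 3008 and 23823 CPM in cluster 14, ratios of 4.39, 6.88 and 2.94. Ftl1 was 7178, 7225 and 11594 CPM in cluster 12 against 1750, 1169 and 3486 CPM in cluster 14. Hmox1 was 487, 499 and 196 CPM against 283, 334 and 86.6 CPM. All 3 genes were thus higher in cluster 12 in 3 of 3 mice, as were Blvra and Blvrb. The importers ran the other way: Slc11a2 was 26.4, 7.34 and 7.99 CPM in cluster 12 against 43.0, 36.5 and 43.7 CPM in cluster 14, and Tfrc was 49.9, 22.0 and 15.5 CPM against 100.03, 75.8 and 33.5 CPM. The exporter Slc40a1 was also lower in cluster 12, at 106, 95.4 and 17.4 CPM against 107, 118 and 46.6 CPM, though nearly equal in mouse 1. The clusters were drawn from the same cells, so these values are a description with no test. Cluster 12 cells were shallower (median 2677, 3198 and 1588 UMIs against 5203, 7111 and 3090) and had a higher ribosomal share (medians of 2.01%, 2.52% and 9.22% against 0.44%, 0.33% and 2.44%). The part of depth and ribosomal share in these differences was not tested.

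Mouse 3 had 5 cells in cluster 12 and 521 in cluster 26. Its Fth1 was 27595 CPM against 6525 in cluster 14, and its Hmox1 was 281 CPM (95% exact Poisson interval 261 to 301) against 72.8 (61.3 to 86.0). These intervals cover counting error only. Cells of cluster 26 in mouse 3 were shallower (median 2756 against 5913 UMIs) and had more mitochondrial RNA (median 8.02% against 1.77%). They also had a higher ribosomal share (median 1.55% against 0.41%). The part of depth, mitochondrial RNA and ribosomal share in these values was not tested. The 29 cells of cluster 26 in mouse 1 held 847 CPM of Hmox1 against 283 in cluster 14, with a median of 14.5% mitochondrial RNA against 3.98%. Of the leading genes of cluster 26, Krt20 is known as a keratin of damaged tubules and Fgg as an acute-phase gene. The cluster met 10 markers of its proximal tubule list and 5 of the injured tubule list. A link between these genes and the Hmox1 and Fth1 levels was not tested.

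Of the 2761 macrophage-like cells of mouse 3, all but 1 lay in 2 clusters. Cluster 7 (1509 cells) was led by Il27, a cytokine subunit, with Cd40 and Cxcl9, and cluster 10 (1251 cells) by the acute-phase gene Saa3 and the monocyte gene Ly6c2. Slc11a2 was 155 CPM (147 to 163) in cluster 7 against 26.5 (24.0 to 29.2) in cluster 10. Hmox1 was 140 CPM (133 to 148) in cluster 7 against 658 (646 to 671) in cluster 10, and Ftl1 was 1638 CPM against 4882. Fth1 was 17601 and 17835 CPM. Slc40a1 was low in both, at 3.43 and 0.83 CPM, from 33 and 13 UMIs. Both clusters come from 1 mouse, so these are descriptions with no replicate check. The median depth was 6198 UMIs in cluster 7 and 12440 in cluster 10.

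Neutrophil-like cells also fell into different clusters in different mice. Clusters 0, led by Prok2 and Retnlg, and 2, with Nlrp12 among its leading genes, held nearly all of those of mice 1, 2 and 4, and cluster 20, led by the granule genes Ngp, Ltf and Camp, held 861 of the 870 of mouse 3. Slc40a1 in cluster 0 was 244, 238 and 47.6 CPM in mice 1, 2 and 4, and in cluster 2 it was 276, 234 and 81.7 CPM, the values of mouse 4 resting on 3 and 25 UMIs. It was 43.6 CPM in cluster 20. Mouse and cluster cannot be told apart for mouse 3, and within clusters 0 and 2 mouse 4 was still below mice 1 and 2.

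**Figure D2:**
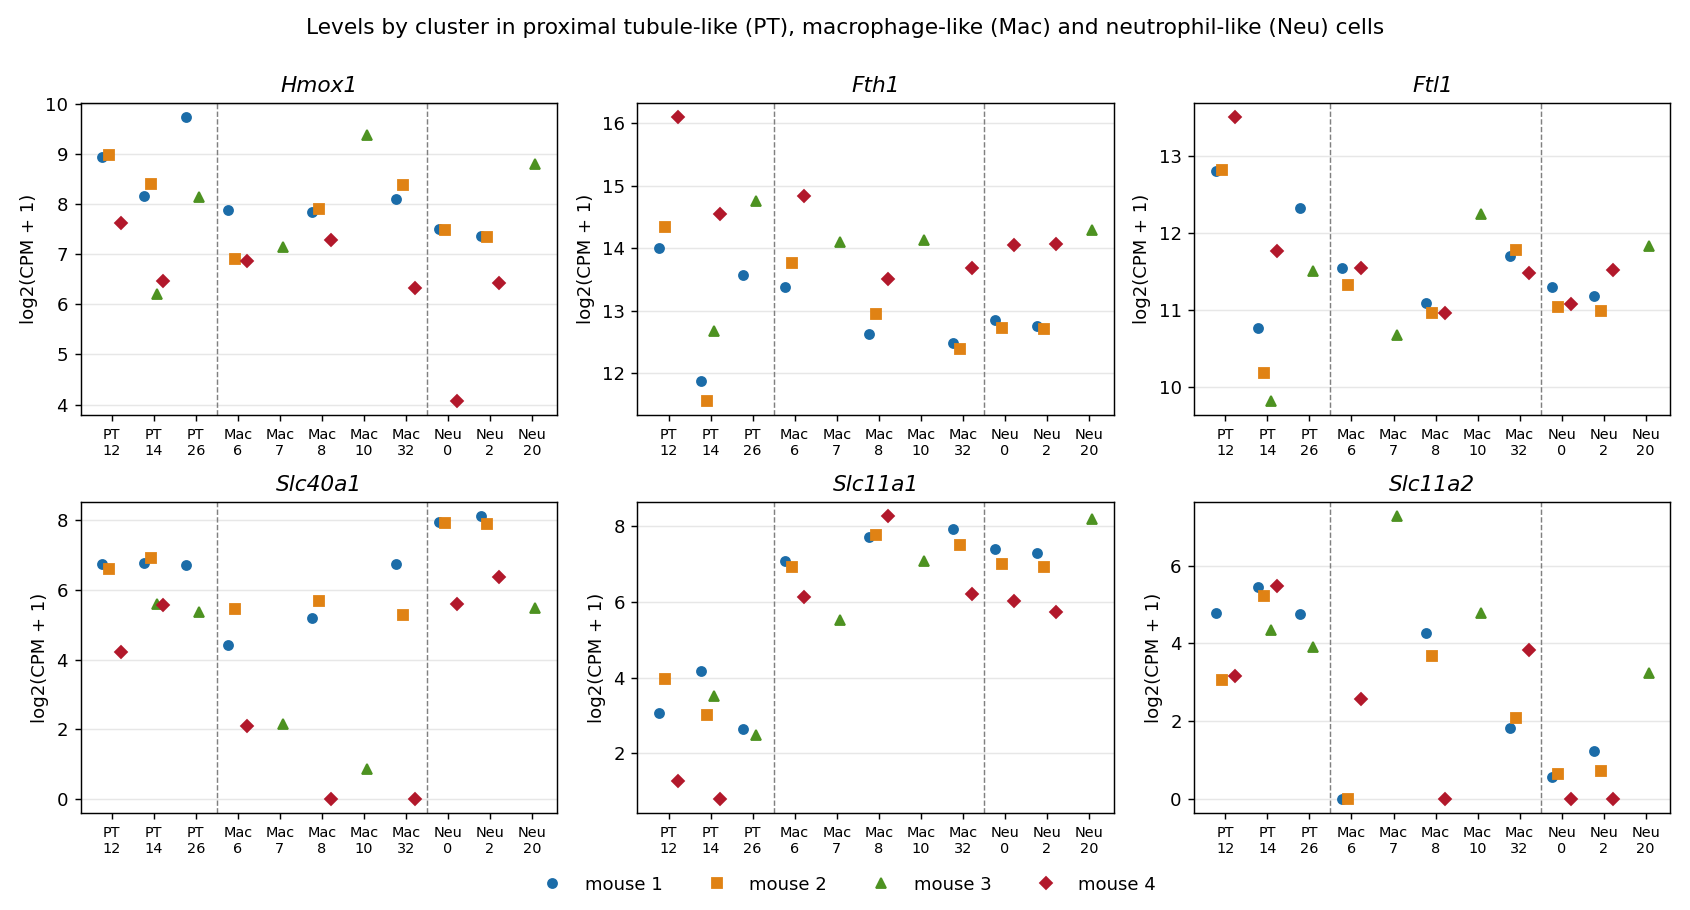
Levels of 6 genes, as log2(CPM + 1) on the vertical axis, in the proximal tubule-like (PT), macrophage-like (Mac) and neutrophil-like (Neu) clusters, given by number on the horizontal axis; each point is 1 mouse with 10 or more cells in the cluster. Fth1, Ftl1 and Hmox1 lie higher in cluster 12 than in cluster 14 in each mouse with both, and Slc11a2 in cluster 7 of mouse 3 is above all other points of its panel.

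In all, 7 class comparisons were tested on UMIs summed per mouse and class with edgeR's quasi-likelihood test, the mouse as a block and Benjamini-Hochberg adjustment over all genes tested. A call is an adjusted p under 0.05. The labels call the mice biological replicates. With the mouse as a block, the p-values rest on how much the class difference within a mouse varies between mice. They do not rest on the SDs of the levels given above.

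Macrophage- and monocyte-like cells had more of both biliverdin reductases and of Slc11a2 than neutrophil-like cells, and less ferroportin. The test called 4 of the 9 genes, where it called 50.4% of all genes: 3 were higher, against 27.1% of 15058 genes, and 1 was lower, against 23.3%. The log2 fold change was 2.56 ± 0.44 (SE; adjusted p = 0.002) for Blvra, 2.20 ± 0.46 (adjusted p = 0.0043) for Blvrb and 2.98 ± 0.39 (adjusted p = 0.00074) for Slc11a2, each higher in 4 of 4 mice. For Slc40a1 it was -4.01 ± 0.45 (adjusted p = 0.00045), lower in 4 of 4 mice and 16.1-fold on the fitted scale. The median log2 fold change of the 9 genes was -0.58, against 0.04 over all genes. Hmox1, Fth1, Ftl1, Tfrc and Slc11a1 were not called, with adjusted p between 0.14 and 0.42. Some of them were called lower in 1 alternative: Tfrc without mouse 3 (-1.11, adjusted p = 0.011), Fth1 without mouse 4 (-0.91, adjusted p = 0.047) and Ftl1 with thinned cells (-0.94, adjusted p = 0.036). Hmox1 in CPM was nevertheless higher in macrophage-like cells in 4 of 4 mice. For all of these but Tfrc the sign turned on the scaling: scaling by library size in place of TMM moved the median of all genes from 0.04 to 0.80, and Hmox1 went from -0.28 to 0.43, Fth1 from -0.58 to 0.13, Ftl1 from -0.61 to 0.09 and Slc11a1 from -0.70 to 0.01, none of them called, while Tfrc went from -0.86 to -0.10. The split of calls over all genes moved with it, from 4087 higher and 3505 lower to 6829 higher and 1835 lower.

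Against T lymphocyte-like cells, macrophage-like cells were higher in 7 of the 9 genes, where 21.7% of 14113 genes were called higher, and lower in 1, where 19.2% were called lower (40.8% in either direction). Slc11a1 had the largest difference, a log2 fold change of 5.78 ± 0.32 (adjusted p = 2.9e-05), followed by Hmox1 at 4.49 ± 0.28, Blvrb at 4.04 ± 0.20, Fth1 at 3.05 ± 0.21, Ftl1 at 2.93 ± 0.18, Slc40a1 at 1.74 ± 0.24 and Blvra at 1.10 ± 0.17. Each was higher in 4 of 4 mice, apart from Slc40a1 in mouse 3, whose order rests on 2 UMIs in T lymphocyte-like cells and is not read. Tfrc, which proliferating lymphocytes are known to use, was lower in macrophage-like cells in 4 of 4 mice (-1.45 ± 0.23, adjusted p = 0.0026). At clustering resolution 0.5 the calls of Tfrc (-0.25, adjusted p = 0.92), Slc40a1 (1.34, 0.36) and Blvra (0.82, 0.50) were lost, and without the mouse block those of Tfrc (adjusted p = 0.094) and Slc40a1 (0.40). Slc11a2 was not called (0.12 ± 0.46, adjusted p = 0.85). The median over the 9 genes was 2.93, against -0.03 over all genes. With library size scaling, 2426 of all genes were called higher and 4160 lower, in place of 3061 and 2704, and the same counts of the 9 genes were called. Most T lymphocyte-like cells came from mouse 4 (3406 of them, against 279 to 574 in the others).

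Against endothelial-like cells 8 of the 9 genes were higher in macrophage-like cells, where 24.6% of 15627 genes were called higher, and 0 were called lower, where 23.9% were (48.4% in either direction). The log2 fold changes were 5.68 ± 0.41 for Slc11a1, 3.41 ± 0.21 for Hmox1, 2.98 ± 0.30 for Fth1, 2.21 ± 0.53 for Slc40a1, 2.12 ± 0.27 for Ftl1, 1.26 ± 0.23 for Blvrb, 1.21 ± 0.36 for Tfrc and 0.90 ± 0.15 for Blvra. Slc11a2 (1.02 ± 0.39, adjusted p = 0.069) was higher in 4 of 4 mice without a call. The median over the 9 genes was 2.12, against -0.01 over all genes. Both classes were made of different clusters in different mice. Endothelial-like clusters 1 (2788 of 2802 cells) and 21 (821 of 822) came from mouse 3. Cluster 3 came mostly from mouse 4 (1841 of 2245) and cluster 4 mostly from mice 1 and 2. Macrophage-like cluster 6 came mostly from mouse 4 (1699 of 1882) and cluster 8 mostly from mice 1 and 2. The calls of Tfrc and Slc40a1 were the least stable: Tfrc (adjusted p = 0.028) was lost without mouse 1 (0.084), mouse 2 (0.13) or mouse 4 (0.067), and Slc40a1 (adjusted p = 0.012) without mouse 1 (0.067) or mouse 2 (0.070). Tfrc was also lost with the highest doublet scores removed (0.10), with thinned cells (0.20) and without the mouse block (0.43). Slc40a1 was also lost without the mouse block (0.062) and without cluster 7 (0.052).

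Between macrophage-like and proximal tubule-like cells Hmox1, Blvrb, Fth1 and Ftl1 did not pass the test. Slc11a1 was the 1 gene called higher in macrophage-like cells (4.51 ± 0.37, adjusted p = 4.1e-05), against 27.5% of 14557 genes (53.8% were called in either direction). The test called 3 lower, against 26.3%: Tfrc at -2.84 ± 0.51 (adjusted p = 0.0022), Slc40a1 at -2.14 ± 0.60 (adjusted p = 0.018) and Blvra at -0.58 ± 0.21 (adjusted p = 0.048), each in 4 of 4 mice. Hmox1 differed by 0.03 ± 0.34 (adjusted p = 0.94), Fth1 by -0.24 ± 0.22 and Ftl1 by -0.25 ± 0.34, and the median of the 9 genes was -0.25 against 0.07 over all genes. The Blvra call was lost without mouse 1, 2 or 4, and without mouse 3 Slc11a2 was called lower (-1.48, adjusted p = 0.00049, against -0.54, adjusted p = 0.53, with all mice), as was Ftl1 (-0.64, adjusted p = 0.038). Without mouse 4 the Slc40a1 call was lost (adjusted p = 0.067), and Blvrb was called higher (0.78, adjusted p = 0.042, against 0.54, adjusted p = 0.11, with all mice).

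Along the nephron, proximal tubule-like cells were higher than thick ascending limb-like cells in 7 of the 9 genes, where 17.9% of 13647 genes were called higher, and 0 were called lower, where 18.1% were (36% in either direction). The log2 fold change was 3.47 ± 0.39 for Hmox1 (adjusted p = 6.4e-05), 2.31 ± 0.19 for Blvra, 1.89 ± 0.22 for Blvrb, 1.64 ± 0.26 for Ftl1, 0.99 ± 0.26 for Tfrc, 0.85 ± 0.30 for Fth1 (adjusted p = 0.043) and 0.79 ± 0.26 for Slc11a2 (adjusted p = 0.034), each higher in 4 of 4 mice. Hmox1 in thick ascending limb-like cells was 22.0, 15.6, 17.4 and 37.3 CPM, below the lowest proximal tubule-like mouse at 155. Slc40a1 did not pass the test (-0.28 ± 0.18, adjusted p = 0.25), and nor did Slc11a1. The median over the 9 genes was 0.99, against -0.01 over all genes. The calls of Fth1 and Slc11a2 were lost without mouse 1, 2 or 4, and that of Tfrc without mouse 1 or 2. Without cluster 26, an alternative added after the data were seen, Fth1 was at 0.36 (adjusted p = 0.46).

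**Figure D3:**
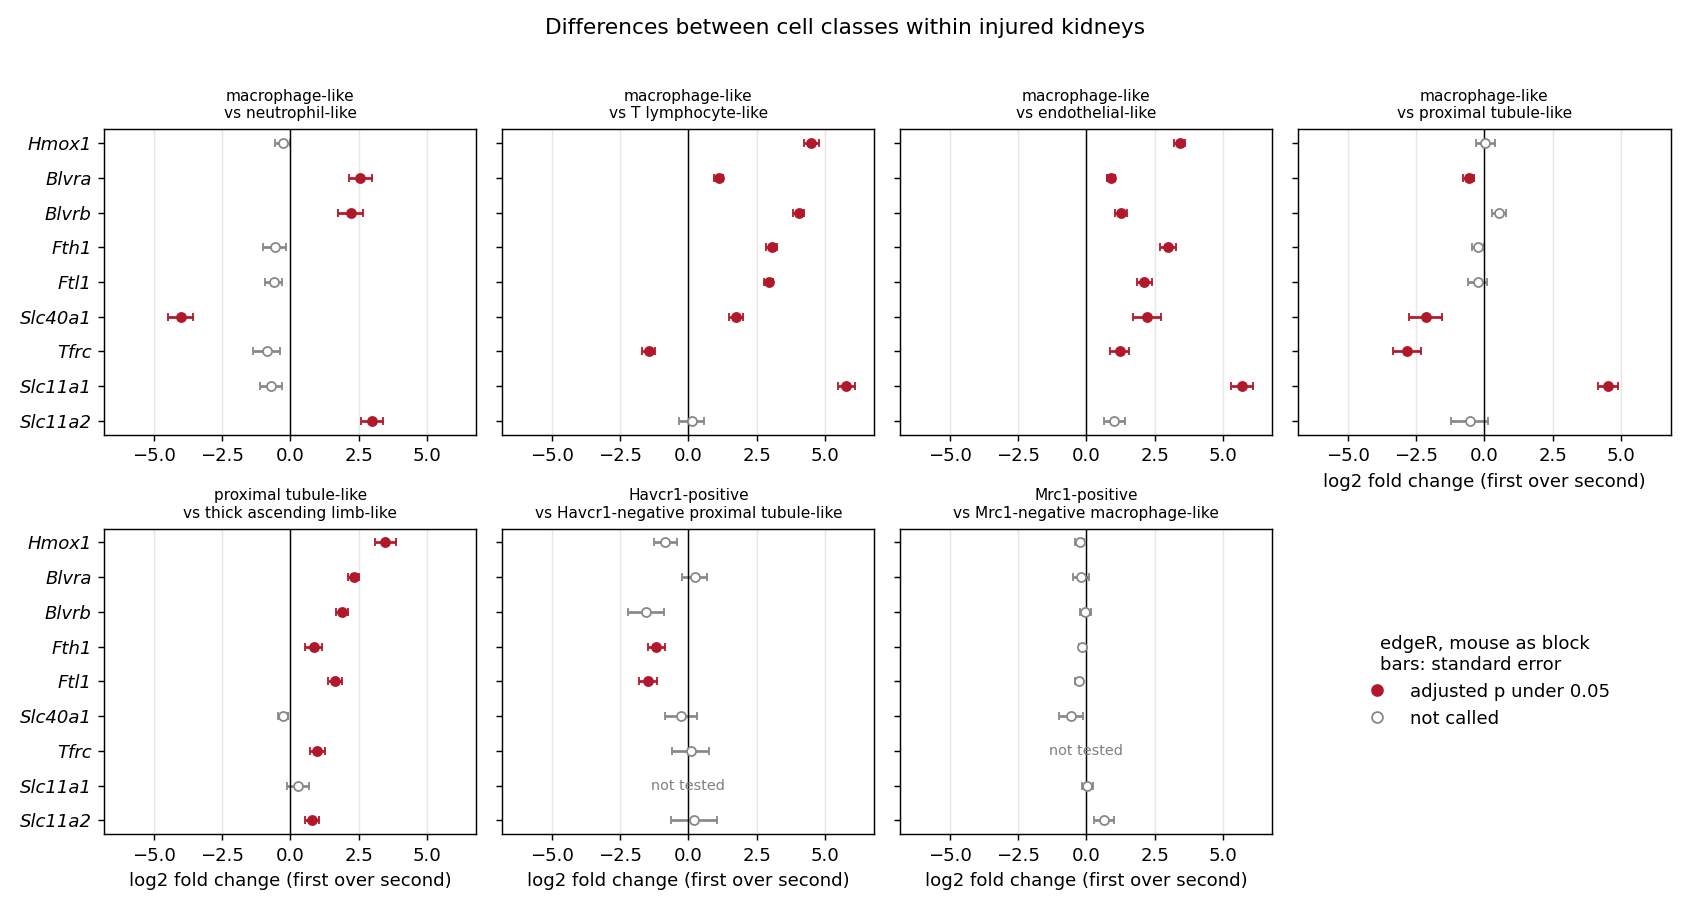
Log2 fold change of each gene between the first and the second class of 7 comparisons, with bars for the standard error; filled red points passed an adjusted p of 0.05 in edgeR and open grey points did not. Slc11a1 lies far to the right where macrophage-like cells are set against T lymphocyte-, endothelial- and proximal tubule-like cells, and Slc40a1 lies furthest to the left against neutrophil-like cells.

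Havcr1 encodes KIM-1, a marker of injured proximal tubule. After thinning, 22, 13, 137 and 25 proximal tubule-like cells of mice 1 to 4 held a Havcr1 UMI and 333, 144, 546 and 1015 did not. This is a cut on 1 gene and not a cell type. The ferritin chains were lower in the Havcr1-positive cells: Ftl1 averaged 2433 ± 2485 CPM against 4383 ± 3015 and was lower in 4 of 4 mice, a log2 fold change of -1.48 ± 0.34 (adjusted p = 0.012), and Fth1 was lower in 3 of 4 mice (-1.17 ± 0.31, adjusted p = 0.045). These were 2 of 8 genes tested, against 0.568% of 4403 genes called lower, and their median was -0.55 against -0.21 over all genes. Hmox1 did not pass (-0.84 ± 0.43, adjusted p = 0.38), and Slc11a1 had 0 UMIs in the positive cells. Without thinning, Fth1 was at -0.27 (adjusted p = 0.49). Both calls were lost without mouse 1 (adjusted p = 0.21 for Ftl1 and 0.095 for Fth1), without mouse 4 (0.072 and 0.23) and with scaling by library size (0.098 and 0.33), which moved the median of all genes to 0.14 and gave 30 higher and 8 lower genes where TMM gave 0 and 25.

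Mrc1 encodes the mannose receptor of resident macrophages. Of the macrophage-like cells 146, 411, 88 and 125 held an Mrc1 UMI after thinning and 389, 797, 2529 and 1477 did not. By edgeR 0 of the 8 genes tested were called, where 3.64% of 7233 genes were (0.677% higher, 2.96% lower) and 938 genes had an unadjusted p under 0.05. DESeq2 called 0 of the 7 for which it gave an adjusted p (Slc40a1 had none), and Tfrc, with 2 and 29 UMIs, did not pass the filter on low counts. The log2 fold changes ran from -0.57 ± 0.44 for Slc40a1 to 0.64 ± 0.37 for Slc11a2, with Hmox1 at -0.25 ± 0.17 and Ftl1 at -0.28 ± 0.12. Their median was -0.18, against -0.06 over all genes. Library size scaling gave 104 higher and 137 lower genes in place of 49 and 214.

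A further 49 genes of heme synthesis, heme transport, iron transport, intracellular iron and their transcription factors set the context. In macrophage- against neutrophil-like cells 15 of 40 tested were higher and 12 lower, against 27.1% and 23.3% of all genes, with a median log2 fold change of 0.30 against 0.04 over all genes. The higher ones were led by Cd163, the haptoglobin-hemoglobin receptor (5.13 ± 0.59), Spic, a transcription factor of iron-recycling macrophages (3.83 ± 0.85), and Lrp1, a receptor for heme bound to hemopexin (3.62 ± 0.70). The lower ones were led by Ltf, the granule protein lactoferrin (-6.62 ± 0.84), Steap4, a metalloreductase (-4.09 ± 0.62), and Fbxl5, the iron-sensing ubiquitin ligase subunit (-3.25 ± 0.42). Ltf in neutrophil-like cells averaged 256 ± 396 CPM, a spread above its mean.

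Against T lymphocyte-like cells 19 of 39 genes were higher and 3 lower, against 21.7% and 19.2% of all genes (median 0.59 against -0.03). Cd163 was at least 51.7-fold and Steap3, an endosomal ferrireductase, at least 22.8-fold higher, with 0 UMIs in the T lymphocyte-like cells set at a floor of 3 counts over the class, and Spic differed by 6.18 ± 0.40. Alad (-1.05 ± 0.24) and Cpox (-0.91 ± 0.23), of heme synthesis, were among the lower ones. Against endothelial-like cells 14 of 42 were higher and 6 lower, against 24.6% and 23.9% of all genes (median 0.21 against -0.01), with Lrp1 (6.10 ± 0.34), Spic (5.78 ± 0.53) and Cd163 (5.44 ± 0.78) leading. Abcg2, a porphyrin exporter, averaged 23.2 ± 9.36 CPM in macrophage-like and 254 ± 57.3 in endothelial-like cells (-3.38 ± 0.18), and Bmp6, the endothelial ligand that drives hepcidin in the liver, differed by -3.89 ± 0.55. The ferroxidase Heph had 3 UMIs in macrophage-like and 290 in endothelial-like cells.

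In macrophage- against proximal tubule-like cells 13 of 44 genes were higher, near the 27.5% of all genes, and 17 lower, against 26.3% (median -0.43 against 0.07), and of the 9 heme synthesis genes 6 were lower and 0 higher. Bmp6 (-8.10 ± 0.57) and the metalloreductase Steap2 (-6.53 ± 0.36) led the lower side, with Heph at 3 UMIs against 43, and Cd163, which had 2 UMIs in proximal tubule-like cells, Spic (5.10 ± 0.58) and Lrp1 (4.49 ± 0.40) led the higher side. Bmp6 in proximal tubule-like cells averaged 529 ± 353 CPM.

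In proximal tubule- against thick ascending limb-like cells 15 of 40 genes were higher, against 17.9% of all genes, and 7 lower, near the 18.1% of all genes (median 0.53 against -0.01), with Bmp6 (4.88 ± 0.31), Abcg2 (4.87 ± 0.27) and the ferroxidase ceruloplasmin, Cp (4.27 ± 0.40), on the higher side. The heme exporter Flvcr1 was lower (-4.89 ± 0.24), at 8.84 ± 3.86 CPM in proximal tubule-like against 235 ± 83.7 in thick ascending limb-like cells. The metal importer Slc39a8 (-3.20 ± 0.79) and Steap3 (-2.08 ± 0.69) were also lower.

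In the Havcr1 comparison edgeR called 0 of 18 tested genes of this list, where it called 0.568% of all genes. In the Mrc1 comparison 2 of 25 were higher and 2 lower, against 0.677% and 2.96% of all genes. The higher ones were Cd163 (3.05 ± 0.48, higher in CPM in 2 of 4 mice) and transferrin, Trf (0.55 ± 0.15), and the lower ones were Fbxl5 (-0.71 ± 0.18) and Pcbp1, an iron chaperone (-0.70 ± 0.22). A set of 5 target genes of NRF2, the oxidative stress factor that also induces Hmox1 and ferritin, served as a reference. Of these, 4 of 5 were higher in proximal tubule- than in thick ascending limb-like cells (17.9% of all genes). In macrophage-like cells 4 of 5 were lower and 1 higher than in proximal tubule-like cells (26.3% and 27.5% of all genes), 4 of 5 lower and 0 higher than in neutrophil-like cells (23.3% and 27.1%), 3 of 5 lower and 1 higher than in endothelial-like cells (23.9% and 24.6%), and 1 of 4 higher than in T lymphocyte-like cells (21.7%).

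Across the mean levels of the 13 classes, the genes most like each member were found by Pearson's r of log2(CPM + 1) among 11778 genes. These values describe 13 points that share libraries and depth, with no test. Hmox1 was most like Ftl1 (r = 0.93), then Znhit1 (0.88) and Gpx1, a glutathione peroxidase (0.87). Ftl1 was most like Hmox1, then Pgd (0.88) and its own copy Ftl1-ps1 (0.86). Fth1 was most like Sat1, of polyamine breakdown (0.89), Gm20528 (0.85) and Ftl1 (0.85). Slc11a1 was most like 3 receptors of myeloid cells, Gpr35, Klra2 and Cd300a (0.98 each), and Slc40a1 was most like Sesn2 (0.87), Prdx5 (0.84) and 9130230L23Rik (0.82). For Blvra the genes were Rnaseh2b (0.91), Plpbp (0.91) and Hyi (0.90), and for Blvrb they were Snx9 (0.83), Agmo (0.82) and Grn (0.80). For Tfrc they were Eml5 (0.84), Xrcc5 (0.82) and Strbp (0.82), and for Slc11a2 they were Pbdc1 (0.96), Akip1 (0.93) and Ssbp1 (0.93).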

How the data were processed

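The authors deposited, for each of 4 mouse kidney libraries, a matrix of raw UMI counts per gene and cell barcode, made with Cell Ranger 9.0.1 per the submitters' processing notes, which also name Seurat 4.1.1. The sources used here name no genome build or annotation for these counts, so no coordinates are printed. Cells with at least 500 UMIs, at least 300 genes and under 50% mitochondrial UMIs were kept. Scrublet was run per library and marked 0, 111, 1 and 1 cells in mice 1 to 4: it did not work in mice 1, 3 and 4, so doublets may remain. With scanpy 1.11.5, each cell was brought to a total of 10000 and logged. Clustering used 2000 variable genes without the 9 genes or the other iron, heme and NRF2 genes, 30 components, 15 neighbours and the Leiden method at resolution 1.

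Clusters were named from marker lists by at least 3 markers, each in at least 20% of cells and at least 2-fold above other cells. These thresholds, and the reasons for leaving 13 clusters unnamed, were set after the clusters were seen, so a difference from the study's own names may come from them. UMIs were summed per mouse and class where a mouse had at least 10 cells, and tested with edgeR 4.0.16 (R 4.3.3; quasi-likelihood, TMM, filterByExpr, mouse as a block). The mouse pairs the classes: deviations of the same mouse in both classes correlated at 0.203 to 0.897 in 28 of 28 values. Intervals are exact Poisson at 95% and cover counting error only. On simulated counts 4-fold changes were recovered for 94% to 98% of changed genes in the 5 class comparisons, 52% in the Havcr1 and 68% in the Mrc1 comparison, and 2-fold changes for 22% to 31%, 4% and 12%. The simulated counts had the same dispersion for every gene and no mouse effect, so recovery in the real data may differ.

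The 9 genes and all lists were chosen with earlier results of these data known. The text names all 9 genes, up to 3 genes of the wider list called in each direction per comparison by size of change, and the 3 genes most like each member. A gene that this rule selects is not reported here. Alternatives covered DESeq2 1.42.0, library size scaling, no filter on low counts, no block, each mouse left out, thinning, a mitochondrial limit of 20%, doublet scores and a resolution of 0.5.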

Additional observations from a re-analysis of the deposited data

Results flagged for a closer look

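Of 117 sets of 4 mice (1 gene in 1 class), 19 held a mouse whose gap to the nearest other mouse exceeded Dixon's 95% limit as a share of the whole range. Chance gives about 1 in 20 for independent sets of normally distributed values. These CPM values were not transformed and the sets share the same 4 mice, so that rate does not measure an excess here. The flagged mouse was mouse 4 in 10 sets, mouse 3 in 8 and mouse 1 in 1. Mouse 4 had the lowest median depth and the highest ribosomal share, and their part in these values was not tested.

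Among the flagged sets, mouse 4 was above the others for Blvrb in 5 classes. Blvrb was 18.1 CPM in T lymphocyte-like cells (3.90 to 5.43 in the others), 113 in distal convoluted tubule-like (11.98 to 22.4), 89.6 in fibroblast- and mural-like (15.1 to 25.4), 196 in macrophage-like (67.1 to 85.4) and 254 in thin limb-like cells (27.1 to 42.7). Fth1 in mouse 4 was 11248 CPM in fibroblast- and mural-like cells (1762 to 2770), 9183 in intercalated-like (2486 to 2991), 5035 in podocyte-like (1969 to 2466) and 19185 in thick ascending limb-like cells (5379 to 7300). Ftl1 in fibroblast- and mural-like cells of mouse 4 was 2044 CPM (527 to 686).

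Among the flagged sets, mouse 3 was above the others for Slc11a2 in intercalated-like (80.7 CPM, others 20.02 to 26.7), macrophage-like (75.3, others 5.18 to 12.8) and neutrophil-like cells (8.38, others 0 to 0.64). Hmox1 in mouse 3 was 57.0 CPM in endothelial-like (16.2 to 21.3) and 86.6 in thin limb-like cells (14.9 to 24.7). Blvrb in neutrophil-like cells of mouse 3 was 24.0 CPM (7.46 to 10.2), Tfrc in podocyte-like cells was 23.9 (9.04 to 11.5), and Blvra in intercalated-like cells was low at 7.02 (22.8 to 23.6). Slc11a1 in intercalated-like cells of mouse 1 was 10.2 CPM (0 to 1.18).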

How the results depend on the processing

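No call of the 9 genes changed direction under the alternatives run. Fitting without the replicate block, which also left fewer genes past the filter on low counts, moved the genes called from 7592 to 3993 (macrophage- against neutrophil-like), from 5765 to 2577 (T lymphocyte-like), from 7568 to 3889 (endothelial-like), from 7833 to 4241 (proximal tubule-like), from 4913 to 2162 (proximal tubule- against thick ascending limb-like), and to 0 for both Havcr1 and Mrc1. Without the block 15 values of the 9 genes lost their call, among them Slc11a2 in macrophage- against neutrophil-like cells (adjusted p = 0.097) and Blvrb, Fth1, Ftl1, Tfrc and Slc11a2 in proximal tubule- against thick ascending limb-like cells (0.14, 0.56, 0.22, 0.099 and 0.095). Thinning gave 3715, 5011 and 2224 in the T lymphocyte-like, proximal tubule-like and thick ascending limb-like comparisons. Resolution 0.5 gave 2649 against T lymphocyte-like cells, of which 4, 13, 10 and 3463 were then named in mice 1 to 4. The Havcr1 count of 25 became 45 with DESeq2, 38 with library size scaling, 63 with the mitochondrial limit of 20%, 354 without thinning and 88 without cluster 26, and the Mrc1 count of 263 became 45 with DESeq2; the cause was not tested. Leaving out 1 mouse gave 4382 to 9707, 3891 to 6195, 4878 to 8738, 5981 to 8110, 3570 to 5868, 3 to 74 and 67 to 257 genes in the same order. The class with the highest mean stayed for 7 to 8 of 9 genes without 1 mouse, for 7 with thinning (Blvrb and Tfrc changed) and for 8 with the mean of single cells (Tfrc changed). Depth limits the genes of few UMIs, Slc11a2 and Tfrc among them.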
